A study of Mus musculus with 6 samples.

Results

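Transcription factors that steer mesenchymal cells into or away from the fat lineage, 10 in number, were followed in the transcriptome of mouse inguinal stromal-vascular cells. They are 3 of the C/EBP proteins, Cebpa, Cebpb and Cebpd, the 4 early B-cell factors Ebf1, Ebf2, Ebf3 and Ebf4, and the zinc-finger proteins Zfp423, Zfp521 and Zfp467. The 10 genes were chosen by symbol as members of these families with a part in adipocyte commitment, and all 10 are among the 24197 genes of the count table. The choice was made with earlier results of these data known. Stromal-vascular cells are the non-adipocyte fraction of adipose tissue and contain the adipocyte precursors. The cells came from the inguinal depot of C57BL/6 mice, were kept in standard growth medium and carried either a control (puro) retrovirus or a Prdm16 retrovirus. Each group had 3 libraries of polyadenylated RNA. The age of the mice, the number of animals and the time after transduction are not given in the labels, and no adipogenic induction is recorded. The labels do not state that replicates were separate cultures or animals. The p-values therefore rest on the spread among 3 libraries a group, and that spread may be technical.

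Adipogenesis runs as a cascade. Cebpb and Cebpd are switched on first, by hormones and mitogenic signals, and they act with glucocorticoid signalling to turn on Cebpa and the nuclear receptor Pparg, which then sustain each other and the genes of the mature adipocyte. The C/EBP proteins are basic leucine-zipper factors that bind DNA as dimers. The early B-cell factors, named for their part in the B lymphocyte lineage, also act in preadipocytes, where Ebf2 marks precursors of brown and beige fat and cooperates with Pparg at brown-selective genes. Zfp423 commits preadipocytes, in part by raising their response to bone morphogenetic proteins (BMPs), and is known to restrain thermogenic genes in white adipocytes. Zfp521, its close relative, opposes Zfp423 and the early B-cell factors, while Zfp467 favours fat over bone in marrow stroma. Prdm16, the delivered gene, is a zinc-finger regulator of the brown and beige programme and a known partner of C/EBP-beta.

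Library totals lay between 28169059 and 35798201 counts. Prdm16 had 14 to 25 counts in the puro libraries and 72525 to 98437 in the Prdm16 libraries. Of 13805 genes tested with edgeR's quasi-likelihood test at a Benjamini-Hochberg adjusted p of 0.05, 75.6% differed between the groups, 37.5% being higher and 38.0% lower with Prdm16, and the 3 libraries of one group did not overlap those of the other for 77.6%. With so large a background, a call is not a distinction by itself, and the sizes and directions of the changes carry the description. Cell identity was read from markers. The stromal progenitor markers summed to 7627 to 8281 CPM, the usual scaling of counts to library size, here adjusted by TMM, in puro and 3266 to 3554 CPM in Prdm16 libraries, mostly from the collagens Col3a1 and Col1a1. Of these 8 markers 6 fell, among them Cd34 (16.4 to 0.952 CPM) and Pdgfrb (554.6 to 195.5 CPM), Ly6a rose (376.1 to 988.1 CPM), and Pdgfra did not pass, at 199 ± 9.57 and 188 ± 6.64 CPM (SD, n = 3). Of 8 macrophage markers measured, Emr1 and C1qa had no count in any library, 1 of the 2 tested fell, and the sum was 5.06 to 6.28 CPM in puro and 4.73 to 4.94 CPM in Prdm16 libraries. The 8 B-cell markers, of which 1 was tested and did not pass, summed to 0.613 to 1.13 and 0.330 to 0.587 CPM, with Ms4a1 at 0 and Pax5, an Ebf1 partner in B cells, at 33 counts in all puro libraries together and 2 in the Prdm16 libraries. The 5 markers of lipid-filled adipocytes summed to 0.323 to 0.626 CPM in puro and 5.74 to 6.47 CPM in Prdm16 libraries. Of them Cidec (0.0895 to 3.46 CPM) and Adipoq (0.279 to 2.36 CPM) rose, and both passed the filter on low counts only with the Prdm16 libraries. Plin1, Lep and Adrb3, with at most 10 counts a group, were not tested. The 7 markers of mammary epithelium summed to 0.258 to 0.328 CPM in puro and 26.7 to 28.2 CPM in Prdm16 libraries. Of the mammary epithelial markers 4 rose, Cdh1, Krt18, Esrp1 and Epcam, while Krt5, Krt8 and Krt14 had at most 4 counts a group. The 4 that rose had at most 8 counts over the puro group and passed the filter on low counts only with the Prdm16 libraries. Their count as higher was thus favoured by the filter. Mesothelial markers summed to 7.18 to 7.58 and 96.4 to 102.4 CPM, mostly Msln, which rose with Krt19, while Wt1 fell from 75 counts to 1. Endothelial markers summed to 3.29 to 3.78 and 9.32 to 12.2 CPM: Tek alone rose (1.19 to 10.2 CPM), Vwf fell (1.78 to 0.298 CPM), Kdr did not pass, and Cdh5 and Cldn5 were at 0. Pericyte markers summed to 148.1 to 170.6 and 193.1 to 216.8 CPM: Notch3 alone rose (124.7 to 201.5 CPM), Cspg4 (31.2 to 2.01 CPM) and Rgs5 (43 to 5 counts) fell, and Kcnj8 was at 0. Schwann cell markers, of which 3 fell and 1 rose, summed to 5.53 to 6.13 and 2.73 to 3.005 CPM with Sox10 at 0. In such bulk libraries fewer cells of a type and less RNA per cell cannot be told apart, and the part of these marker shifts in the results that follow was not tested.

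All 10 factors passed the filter on low counts and all 10 differed between the groups, against 75.6% of all tested genes. Ebf4, with 2 puro libraries at the level of the filter, passed it only with the Prdm16 libraries, where it is higher. Its place in these counts was thus favoured by the filter. With Prdm16 4 were higher and 6 lower, against 37.5% and 38.0% of all tested genes. Those that rose were Cebpb, Ebf3, Ebf4 and Zfp467, and those that fell were Cebpa, Cebpd, Ebf1, Ebf2, Zfp423 and Zfp521. In CPM the 2 groups of libraries did not overlap for any of the 10, where 38.4% of all tested genes were separated upwards and 39.2% downwards. The median log2 fold change was −0.92 for the 10 factors and −0.01 for all tested genes. Their median absolute log2 fold change was 1.30, against 0.38 for all tested genes, and 7 of 10 reached 1 in size, against 21.9%. The members were chosen with earlier results of these data known, so these contrasts describe them and cannot show that the set stands out. Each of the 3 families held members that went up and members that went down. The zinc-finger genes are grouped here as a family, but Zfp467 is unlike the other members in coding sequence, and the related pair Zfp423 and Zfp521 both fell.

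**Figure D1:**
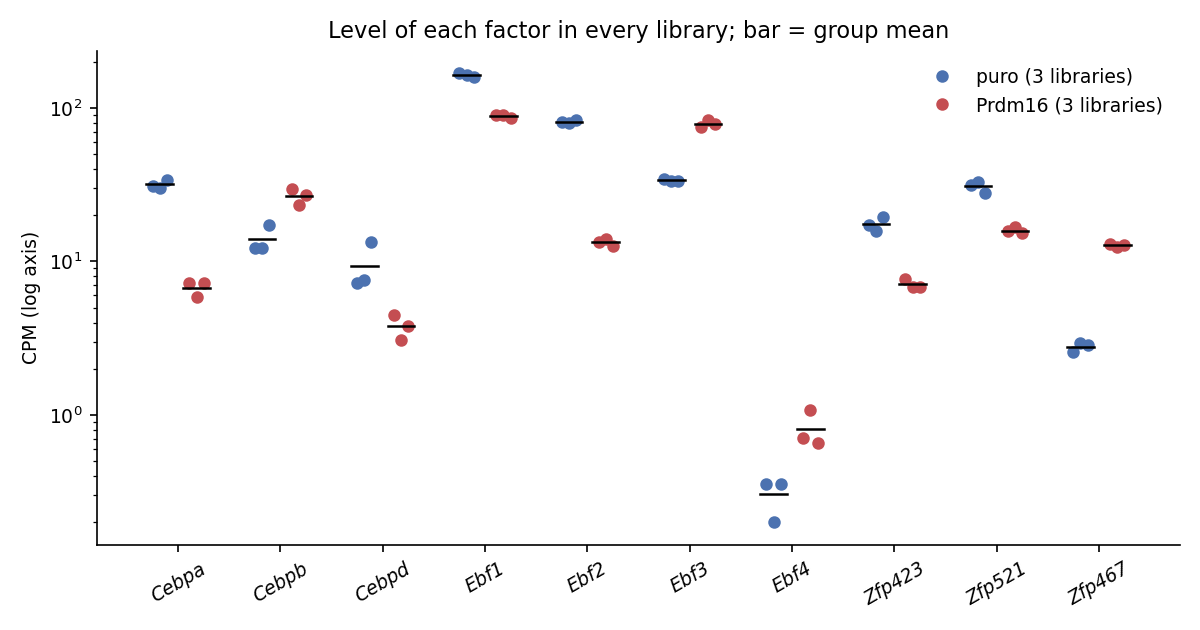
CPM (log axis) of the 10 factors in each of the 6 libraries, blue for puro and red for Prdm16, with a bar at each group's mean. The points of the 2 groups are apart for every gene, from Ebf4 below 1.1 CPM to Ebf1 at up to 167.9 CPM.

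The C/EBP genes split. Cebpa, the factor that maintains the adipocyte state, had 31.1, 30.2 and 33.7 CPM in puro libraries 1 to 3 and 7.19, 5.87 and 7.22 CPM in Prdm16 libraries 1 to 3. All 3 Prdm16 libraries lay far below the lowest puro library. The log2 fold change was −2.22 ± 0.08 (SE, adjusted p = 8.28e-10), and Cebpa was 4.66-fold lower.

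Cebpb, the early inducer, moved the other way. It had 12.2, 12.2 and 17.3 CPM in the puro libraries and 29.5, 23.3 and 27.0 CPM in the Prdm16 libraries, so that the lowest Prdm16 library stood above the highest puro library. The log2 fold change was 0.94 ± 0.13 (adjusted p = 5.36e-05). Cebpd, the other early member, did not follow Cebpb: it had 7.19, 7.54 and 13.4 CPM in puro and 4.49, 3.07 and 3.80 CPM in Prdm16 libraries. The groups did not overlap, and puro replicate 3 stood well above the other two puro libraries. The log2 fold change of Cebpd was −1.30 ± 0.24 (adjusted p = 0.000464) and −0.95 without puro replicate 3. The exons of Cebpd overlap those of Spidr, a DNA repair gene on the other strand with 50.8 to 67.2 CPM, and no source used here gives the strand setting, so the level of Cebpd is uncertain.

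The coding sequences of Cebpa and Cebpb were identical at 53.9% of alignment columns and those of Cebpb and Cebpd at 58.0%. Their longest shared stretches lie in the basic region, the part of the protein that touches DNA, and are shown because they mark how far reads of these paralogs could be confused. Each is written 5′ to 3′ from the GENCODE M21 coding transcripts.
Cebpa and Cebpb, 29 bases: cgcaacaacatcgcggtgcgcaagagccg
Cebpb and Cebpd, 27 bases: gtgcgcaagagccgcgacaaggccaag
The first stretch covers bases 874 to 902 of the 1077-base Cebpa coding sequence. Read length and the handling of reads that match several genes are not stated in those sources.

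Among the early B-cell factors Ebf2 had the largest change. This marker of brown and beige precursors had 81.2, 79.3 and 83.1 CPM in the puro libraries and 13.4, 14.1 and 12.6 CPM in the Prdm16 libraries. The libraries of each group lay close together and the groups far apart, and the log2 fold change was −2.61 ± 0.05 (adjusted p = 4.65e-12). In absolute size this was the largest of the 10 factors, at the 92.7th percentile of all tested genes. The 444 tested genes of its chromosome, 14, had a median log2 fold change of 0.49, opposite in sign, and Ebf2 stood at −3.09 after subtraction of chromosome medians.

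Ebf1, the most abundant factor of the set per kilobase in puro cells, fell less. It had 167.9, 163.7 and 159.3 CPM in puro and 89.6, 90.1 and 86.3 CPM in Prdm16 libraries. Both groups were tight and did not overlap, and the log2 fold change was −0.88 ± 0.04 (adjusted p = 2.89e-09).

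Ebf3, the nearest relative of Ebf1 in coding sequence here, rose instead. Its level was 34.5, 33.4 and 33.3 CPM in puro and 74.5, 82.8 and 78.2 CPM in Prdm16 libraries, and the difference was 1.22 ± 0.05 on the log2 scale (adjusted p = 1.05e-09). The lowest Prdm16 library was far above the highest puro library. Ebf4, the least studied member, was rare in both groups: 11, 7 and 12 counts in puro and 25, 31 and 22 counts in Prdm16 libraries. These are 0.355, 0.201 and 0.358 CPM against 0.710, 1.07 and 0.659 CPM. Its log2 fold change of 1.40 ± 0.32 (adjusted p = 0.00197) has the widest error of the 10, and 2 puro libraries and all 3 Prdm16 libraries reached the 0.299 CPM of the low-count filter.

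Coding sequences of Ebf1 and Ebf3 were identical at 78.7% of alignment columns, the highest share among the 6 pairs of early B-cell factors, and those of Ebf2 and Ebf4 at 57.7%, the lowest. No pair shared an unbroken stretch of more than 27 bases. For the pairs Ebf1 and Ebf3, and Ebf2 and Ebf3, whose members moved in opposite directions, the stretches are given from the same transcripts to show how short the identical runs are.
Ebf1 and Ebf3, 24 bases: gagccgctgggcagcggcatgaac
Ebf2 and Ebf3, 23 bases: ctggcgctctacgacaggcaggg

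Of the zinc-finger factors, Zfp467 rose and the related pair Zfp423 and Zfp521 fell. Zfp467, which promotes adipogenesis at the cost of bone formation, had 2.58, 2.92 and 2.86 CPM in puro and 13.0, 12.5 and 12.9 CPM in Prdm16 libraries. This was the largest rise of the 10, 2.19 ± 0.09 on the log2 scale or 4.57-fold (adjusted p = 1.37e-09), with the libraries of each group close together. Zfp423, the preadipocyte commitment factor, had 17.3, 15.9 and 19.6 CPM in puro and 7.64, 6.84 and 6.80 CPM in Prdm16 libraries. Its highest Prdm16 library was below its lowest puro library by more than the spread within either group, and the log2 fold change was −1.31 ± 0.09 (adjusted p = 1.99e-07).

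Zfp521, the antagonist of Zfp423, had 31.3, 33.0 and 27.95 CPM in puro and 15.7, 16.7 and 15.3 CPM in Prdm16 libraries. The groups did not overlap. The log2 fold change was −0.95 ± 0.07 (adjusted p = 2.68e-07). The 395 tested genes of chromosome 18, where Zfp521 lies, had a median of −0.41, and with the median of each chromosome removed Zfp521 had −0.54 (edgeR adjusted p = 3.33e-05). The ratio of Zfp423 to Zfp521 per kilobase was 0.746 ± 0.144 in puro and 0.576 ± 0.0489 in Prdm16 libraries (SD, n = 3), whose ranges of 0.620 to 0.903 and 0.530 to 0.627 overlap. The coding sequences of Zfp423 and Zfp521 were identical at 66.9% of alignment columns, with a longest shared stretch of 35 bases. Zfp467 was more distant, at 32.5% with Zfp423 and 31.4% with Zfp521.

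**Figure D2:**
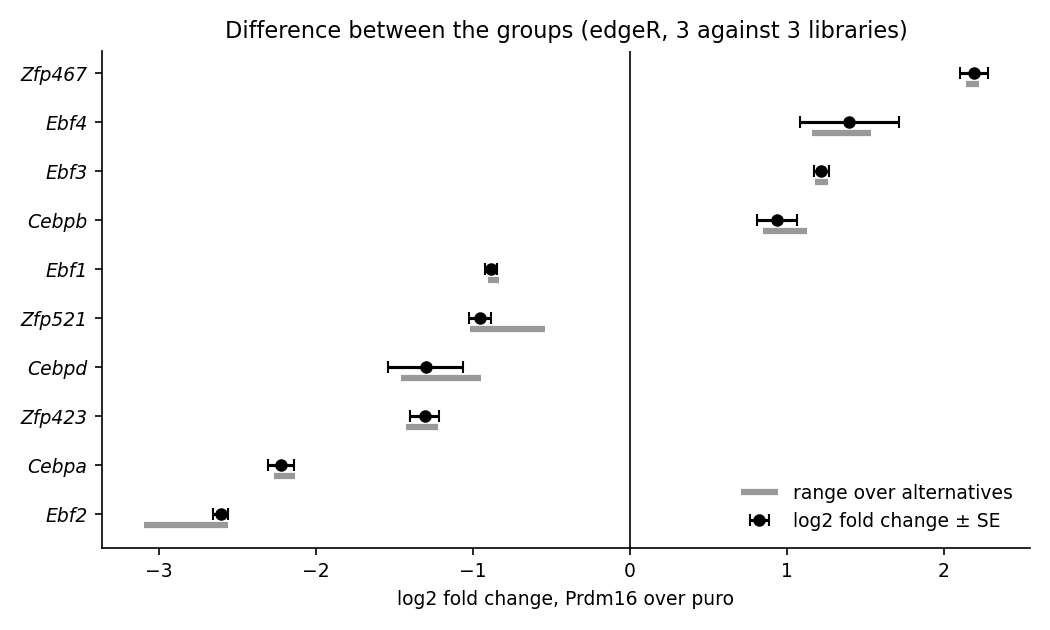
Log2 fold change of each factor, Prdm16 over puro, with its SE (black), and the range of that value over the alternative settings (grey). To the right of 0 lie 4 genes and to the left 6 under every setting in which they were tested (Ebf4 was not tested with the 1 CPM filter), and the grey bar is longest for Cebpd, Ebf2 and Zfp521.

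Levels of different genes were compared as CPM per kilobase of annotated exon. In puro cells the order was Ebf1 (27.4 ± 0.719), Ebf2 (14.3 ± 0.336), Cebpa (12.0 ± 0.697), Cebpb (9.24 ± 1.97), Ebf3 (6.37 ± 0.121), Zfp521 (4.71 ± 0.393), Zfp423 (3.48 ± 0.368), Cebpd (2.51 ± 0.937), Zfp467 (0.677 ± 0.0445) and Ebf4 (0.0991 ± 0.0292), each in CPM per kilobase (SD, n = 3). Cebpa and Cebpb overlapped in their libraries, as did Zfp423 and Cebpd. In Prdm16 cells Cebpb led with 17.7 ± 2.07 CPM per kilobase, followed by Ebf3 and Ebf1, both at 14.8 (SD 0.791 and 0.345), and the libraries of Cebpb overlapped those of Ebf3, and those of Ebf3 those of Ebf1. Zfp467 followed at 3.10 ± 0.0644 CPM per kilobase. Cebpa (2.56 ± 0.291), Zfp521 (2.44 ± 0.106) and Ebf2 (2.35 ± 0.1302) formed a run of overlapping neighbours below it. Zfp423 (1.40 ± 0.0937), Cebpd (1.01 ± 0.189) and Ebf4 (0.265 ± 0.0731) came last. Ebf2 moved from the second place to the seventh, Cebpa from the third to the fifth, and Zfp467 from the ninth to the fourth.

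The make-up of each family is given beside its sum, which covers only the members followed here. For Cebpa, Cebpb and Cebpd the sum was 23.8 ± 3.58 CPM per kilobase in puro and 21.2 ± 2.53 in Prdm16 libraries (SD, n = 3), overlapping ranges. Other C/EBP genes are not in it, among them Cebpg (107.9 CPM in puro and 89.3 CPM in Prdm16 libraries) and Ddit3 (119.9 and 41.0 CPM). The shares hold among these 3 members only. Within this sum the share of Cebpa went from 51.0% ± 4.48 to 12.1% ± 0.525 and that of Cebpb from 38.7% ± 2.27 to 83.2% ± 0.448, while Cebpd made up 10.3% ± 2.21 and 4.74% ± 0.334. The ratio of Cebpa to Cebpb was 1.45, 1.42 and 1.11 in the puro libraries and 0.139, 0.144 and 0.153 in the Prdm16 libraries, so the more abundant of the pair was Cebpa in every puro and Cebpb in every Prdm16 library.

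For the early B-cell factors the sum went from 48.1 ± 0.750 to 32.3 ± 1.10 CPM per kilobase (SD, n = 3). Ebf1 held 56.9% ± 0.855 of it in puro and 46.0% ± 1.26 in Prdm16 libraries, Ebf2 29.7% ± 0.850 and 7.28% ± 0.239, and Ebf3 13.2% ± 0.0442 and 46.0% ± 1.28. Ebf4 made up 0.137% to 1.04% of the sum in each library. The puro cells carried 4.23 to 4.34 times as much Ebf1 as Ebf3, and the Prdm16 cells 0.962 to 1.07 times as much. For the zinc-finger factors the sum went from 8.87 ± 0.0346 to 6.94 ± 0.129 CPM per kilobase, with the share of Zfp467 at 7.64% ± 0.482 in puro and 44.7% ± 1.07 in Prdm16 libraries. Zfp423 had 39.2% ± 4.27 and 20.2% ± 1.01, and Zfp521 53.1% ± 4.29 and 35.1% ± 1.49. With 3 against 3 libraries an exact permutation test of a share cannot go below p = 0.1, and none was run.

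**Figure D3:**
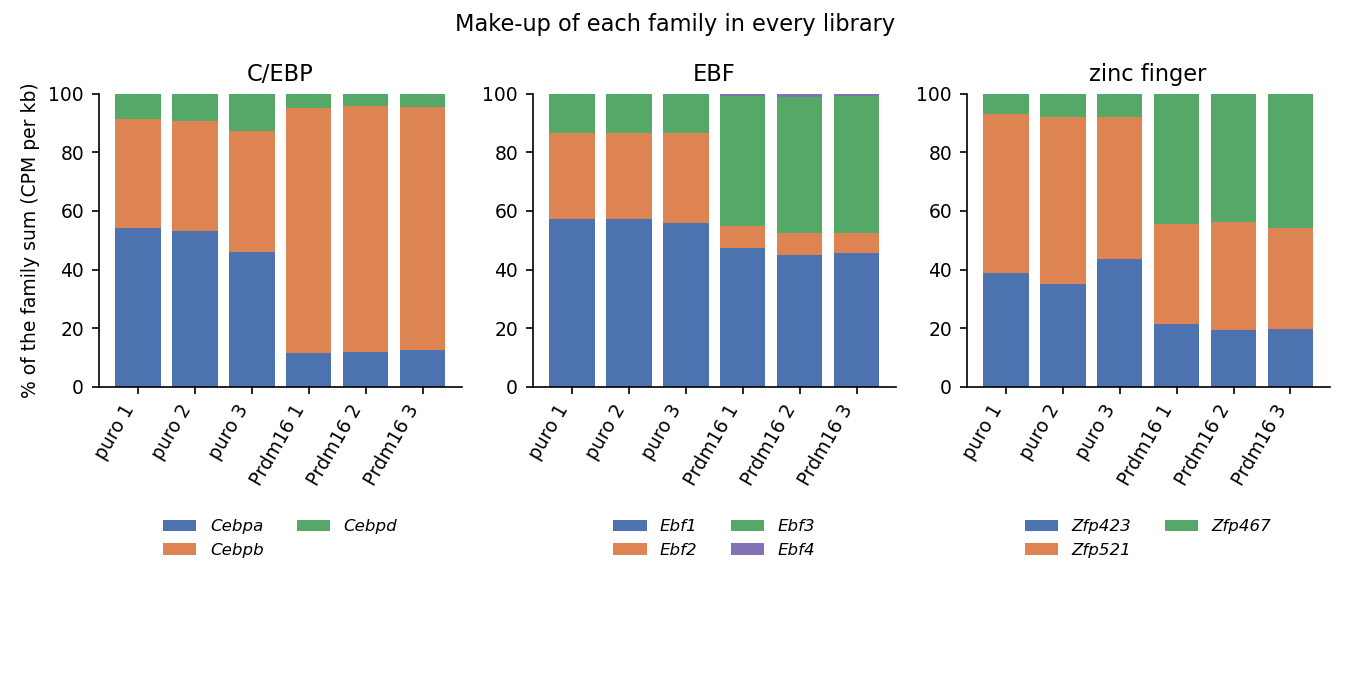
Share of each gene in the sum over the members of its family followed here, in percent of CPM per kilobase, for every library. Cebpg and Ddit3 are not in the C/EBP bar. Cebpb fills about 83% of the C/EBP bar in the 3 Prdm16 libraries, and Ebf3 and Zfp467 widen to 44.5% or more and 43.7% or more of theirs.

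The spread between libraries of a group differed among the factors. In the puro group the coefficient of variation of CPM was 1.9% to 2.6% for Ebf1, Ebf2 and Ebf3, below the median of 4.1% over the tested genes with at least 3 CPM. It was 21.3% for Cebpb, 37.4% for Cebpd and 29.5% for the rare Ebf4. Puro replicate 3 was the highest of its group for Cebpa, Cebpb, Cebpd, Zfp423, Ebf2 and Ebf4, with log2 deviations from the group mean of 0.34 for Cebpb and 0.57 for Cebpd. In the Prdm16 group replicate 2 was the lowest for all 3 C/EBP members, with deviations of −0.20, −0.18 and −0.28 for Cebpa, Cebpb and Cebpd. Without puro replicate 3 the log2 fold change of Cebpb was 1.13, and the calls of both genes held when each library was left out in turn.

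**Figure D4:**
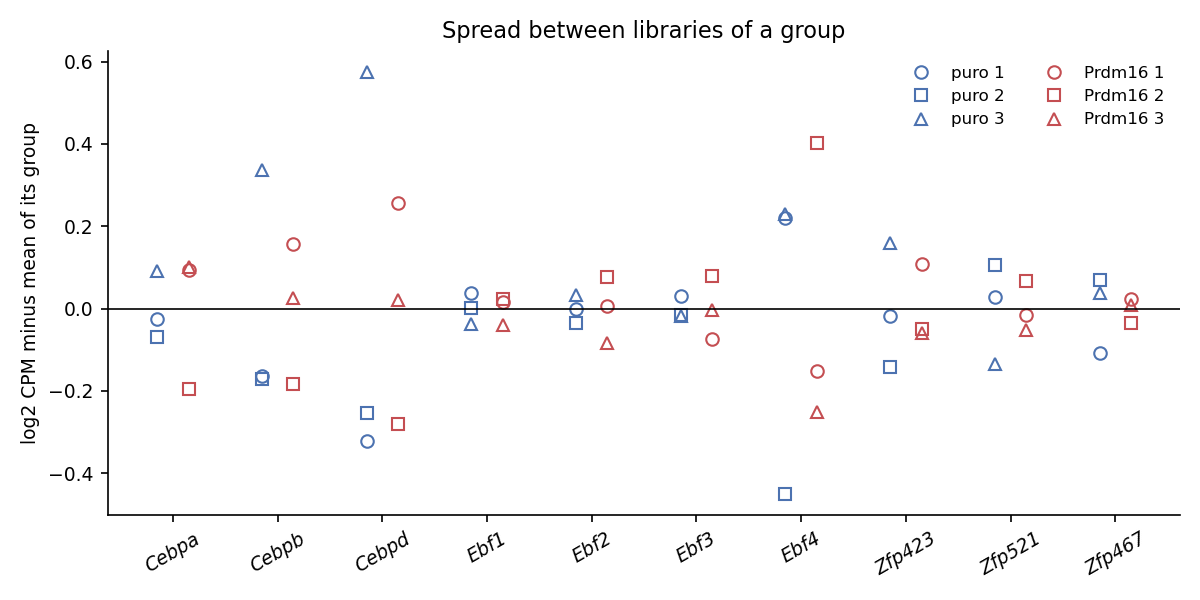
Log2 CPM of each factor minus the mean of its group, blue for puro and red for Prdm16, with a symbol for each replicate. Puro 3 (blue triangles) stands at 0.34 for Cebpb and 0.57 for Cebpd, while the points of Ebf1, Ebf2 and Ebf3 stay within 0.1 of 0.

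For the most abundant member of each family by mean CPM, genes with the most similar profile over the 6 libraries were sought among 10501 genes of at least 5 mean CPM, by Euclidean distance of log2 CPM centred per gene. The nearest to Cebpb was Fos, an immediate early AP-1 factor (distance 0.16), with 4.19, 4.27 and 5.39 CPM in puro and 9.66, 8.26 and 9.11 CPM in Prdm16 libraries. It too was highest in replicate 3 among the puro and lowest in replicate 2 among the Prdm16 libraries. Mxd3, a MAX dimerization protein, and Cox8a, a cytochrome oxidase subunit, followed at 0.20 each. The profile of Ebf1 was nearest to those of Frmd4a (0.05), Slc43a3 and Kirrel (0.06 each), and that of Zfp521 to those of Pde4d, a cyclic AMP phosphodiesterase (0.07), and Wls, the Wnt secretion factor, and Gulp1, an engulfment adaptor (0.12 each). With only 2 groups this likeness rests mainly on a like fold change.

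Promoter bases were examined because related C/EBP genes, and related early B-cell factors, moved in opposite directions. RefSeq windows on GRCm38.p6 were found for 7 of the 10 genes, 9 windows in all, for all but Ebf2, Cebpd and Zfp521. An Ebf1 window with 40.0% G and C lies wholly in annotated exon. The 250 bases before the start site were searched on both strands for a C/EBP motif (TTNNGCAA), an EBF motif (CCCNNGGGA), the CCAAT box (CCAAT), the GC box (GGGCGG) and the TATA box (TATAAA). The EBF letters matched in 3 of the 9 windows, those of Cebpb, Ebf3 and Zfp467, against 6.34% of 20494 windows of genes in the table and 12.6% of the 2531 windows with at least 70% G and C. These 3 windows have 70.4% to 81.6% G and C, so all 3 are among the 5 member windows that are GC-rich. The C/EBP letters matched in 1 window, that before the upstream of the Zfp423 starts, against 9.01% of all windows and 1.86% of those with at least 70% G and C, of which it is one. A TATA box was found 30 bases before the start of Cebpa alone of the 9, against 11.2%, and a GC box in 6 of 9, against 43.3% of all windows and 90.7% of the GC-rich ones. No window held a CCAAT box, against 35.1% of all and 21.9% of the GC-rich ones; 5 of the 9 windows are GC-rich in this sense. The EBF match of Cebpb shares bases with one of its GC boxes. A match describes letters and is no sign of binding.

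The 5 windows with a TATA, EBF or C/EBP match are printed 5′ to 3′ on the strand of the gene. They end at the base before the start site, with these matches in capitals. Not printed, for want of such a match, are the window of Ebf4, which rose, both of Ebf1, which fell, and the other of Zfp423. The Ebf4 window has 75.2% G and C. Being picked by a match, the printed windows do not show how matches go with direction. Cebpa fell and Cebpb rose, Ebf3 and Zfp467 rose, and Zfp423 fell.
Cebpa (chr7:35119043-35119292, plus strand): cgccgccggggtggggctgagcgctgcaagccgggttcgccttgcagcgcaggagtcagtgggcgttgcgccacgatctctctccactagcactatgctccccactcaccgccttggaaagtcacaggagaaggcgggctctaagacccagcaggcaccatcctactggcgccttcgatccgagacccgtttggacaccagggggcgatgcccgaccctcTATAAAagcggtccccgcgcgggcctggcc
Cebpb (chr2:167688665-167688914, plus strand): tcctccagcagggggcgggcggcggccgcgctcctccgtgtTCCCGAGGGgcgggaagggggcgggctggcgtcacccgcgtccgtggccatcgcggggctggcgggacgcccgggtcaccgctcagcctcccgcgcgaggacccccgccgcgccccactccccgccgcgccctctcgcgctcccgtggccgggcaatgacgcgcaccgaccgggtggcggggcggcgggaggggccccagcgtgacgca
Ebf3 (chr7:137314446-137314695, minus strand): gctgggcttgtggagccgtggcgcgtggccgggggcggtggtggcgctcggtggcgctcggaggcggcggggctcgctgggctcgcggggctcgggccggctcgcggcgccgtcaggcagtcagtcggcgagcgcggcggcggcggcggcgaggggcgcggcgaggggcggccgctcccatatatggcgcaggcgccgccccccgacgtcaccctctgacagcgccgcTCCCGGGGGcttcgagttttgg
Zfp467 (chr6:48445091-48445340, minus strand): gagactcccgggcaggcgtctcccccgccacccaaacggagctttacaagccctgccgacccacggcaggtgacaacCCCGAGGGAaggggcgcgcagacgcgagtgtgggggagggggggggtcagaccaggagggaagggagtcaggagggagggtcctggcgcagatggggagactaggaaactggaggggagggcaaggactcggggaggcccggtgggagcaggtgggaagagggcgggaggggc
Zfp423 (chr8:87959596-87959845, minus strand): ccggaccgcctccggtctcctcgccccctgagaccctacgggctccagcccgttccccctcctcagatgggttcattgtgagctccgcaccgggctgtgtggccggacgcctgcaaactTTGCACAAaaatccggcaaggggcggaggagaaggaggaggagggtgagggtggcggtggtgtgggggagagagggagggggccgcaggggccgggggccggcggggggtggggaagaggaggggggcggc
The capitals mark the TATA box in Cebpa, the EBF match in Cebpb, Ebf3 and Zfp467, and the C/EBP match in Zfp423.

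Genes that work with these factors were described from 8 lists of regulators, partners and targets, without a test of any list. Each count of a list stands beside the 37.5% of all tested genes that were higher and the 38.0% that were lower. A count near these shares does not set a list apart. Among relatives and regulators of the C/EBP proteins, 2 of 6 tested genes rose and 4 fell (median log2 fold change −0.48). The pseudokinases Trib2 and Trib1, which target C/EBP-alpha protein for degradation, rose by 2.58 ± 0.07 and 1.56 ± 0.06 on the log2 scale (adjusted p = 7.63e-11 and 1.57e-09). Ddit3, a stress-induced C/EBP that blocks the others as a dimer partner, fell from 119.9 ± 2.76 to 41.0 ± 2.47 CPM (SD, n = 3). Named after their values were seen, Trib3 had −1.62 ± 0.11, Atf4, a stress factor upstream of Ddit3, −0.68 ± 0.03, and Cebpg, a C/EBP without a classical activation domain, −0.27 ± 0.04. Atf4 stood at −0.30 with chromosome medians removed. Cebpe, the granulocyte C/EBP, had no count in any library, which allows up to 3 counts or 0.0852 to 0.104 CPM in a library for counting error.

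Of 17 other transcription factors listed as pro-adipogenic, 12 rose, 4 fell and 1 did not pass (median 0.39). Whether each gene of this list, or of the anti-adipogenic list below, acts that way in these cells was not tested. The number that fell was 3 under 10 of the 16 alternatives, and of those that fell Nr1h3, an oxysterol receptor named after its value was seen, was nearest the threshold (adjusted p = 0.0444). Klf5, a Krüppel-like factor that C/EBP-beta and C/EBP-delta induce, rose by 3.36 ± 0.09 on the log2 scale, Klf9 by 0.98 ± 0.04 and Stat3, the transducer of cytokine signals, by 0.84 ± 0.03, with an adjusted p of at most 1.37e-09. Klf9 had 0.59 with chromosome medians removed. Named after their values were seen, Pparg, the partner of Cebpa, rose from 54.3 ± 1.44 to 74.5 ± 2.77 CPM (SD, n = 3). Its log2 fold change was 0.46 ± 0.04. Nr3c1, the glucocorticoid receptor, had −0.78 ± 0.04, and −0.37 with chromosome medians removed. Klf4, an inducer of Cebpb, had −1.48 ± 0.12.

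Of 12 factors listed as anti-adipogenic, 4 rose, 5 fell and 3 did not pass, with a median of −0.01. Over all tested genes 37.5% were higher and 38.0% lower. Gata2, which restrains the step from preadipocyte to adipocyte, rose from 3.36 ± 0.355 to 39.6 ± 1.88 CPM (SD, n = 3). Gata3 of the same list, named after its value was seen, moved the other way, from 12.0 ± 0.97 to 1.61 ± 0.139 CPM. Hes1, a Notch target, rose from 4.32 ± 0.360 to 31.3 ± 2.28 CPM. Snai2, a mesenchymal repressor, had a log2 fold change of −1.48 ± 0.04.

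Of 10 tested adipocyte genes known as C/EBP targets, 7 rose, 2 fell and 1 did not pass (median 2.54). Lep, Plin1, Pck1 and Retn, with no more than 10 counts a group, were not tested. The median was 2.085 without a filter on low counts and 2.25 with a filter of 1 CPM. Gpd1, Cfd and Adipoq, named after their values were seen, had puro means of 0.15, 0.0581 and 0.279 CPM. These lie below the 0.299 CPM of the low-count filter, which the 3 genes passed through the Prdm16 libraries. Slc2a4 rose by 5.04 ± 0.16 and Cd36 by 4.36 ± 0.10 on the log2 scale, while Lpl had −2.57 ± 0.04 (adjusted p of at most 1.78e-10). The summed CPM of the 5 adipocyte markers, given above, rose through Cidec and Adipoq where the median of this list was above 0, and Adipoq, Lep and Plin1 are in both. The summed CPM of the list itself was 1392 to 1498 in puro and 1343 to 1486 in Prdm16 libraries. The part of the marker shift in this list was not tested. Of 7 acute-phase genes that C/EBP-beta and C/EBP-delta are known to drive, 4 rose and 3 fell. The number that rose was 3 at an adjusted p of 0.01, with chromosome medians removed, and without puro library 1, puro library 3 or Prdm16 library 3; Hp, haptoglobin, also named after its value was seen, was nearest the threshold (adjusted p = 0.0175). C3 and the chemokine Cxcl1 rose by 2.06 ± 0.04 and 2.21 ± 0.07, and the pentraxin Ptx3 had −1.20 ± 0.04 (adjusted p of at most 3.86e-10). The median of this list was 0.34, but −0.41 without a filter on low counts and 1.19 with a filter of 1 CPM.

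Brown-selective genes linked to Ebf2 held 6 tested genes, of which 3 rose, 2 fell and 1 did not pass (median 0.34). At an adjusted p of 0.01 the number higher was 1, and without a filter on low counts it was 4 of 13 tested. The coactivator Ppargc1a rose by 4.01 ± 0.07 on the log2 scale, while Zic1, a marker of classical brown precursors, had −0.52 ± 0.07 and the pyruvate dehydrogenase kinase Pdk4 −0.19 ± 0.05. The other 8, among them Ucp1, Cidea and Dio2, had at most 18 counts over a group. In the BMP axis, through which Zfp423 is thought to act, 5 of 19 tested genes rose, 12 fell and 2 did not pass (median −0.55). The BMP antagonist Grem1 had −4.06 ± 0.14 and the signal transducer Smad9 −2.74 ± 0.08 (adjusted p of at most 3.55e-10). The BMP target Id1, named after its value was seen, rose by 2.08 ± 0.09. Other genes of the list named in the same way did not all follow Id1. Id2 had 0.32 ± 0.07, Id3 −0.40 ± 0.08 and Smad7 −1.24 ± 0.06, and Smad6 did not pass. Of 8 tested osteoblast genes, which Zfp467 is known to oppose, 3 rose, 4 fell and 1 did not pass (median −0.56). Msx2 rose by 2.96 ± 0.13, the decoy receptor Tnfrsf11b had −1.93 ± 0.09, and Spp1 rose by 0.76 ± 0.07 (adjusted p of at most 1.37e-06). Runx2, the master regulator of bone, named after its value was seen, had −0.42 ± 0.05. Pth1r, the parathyroid hormone receptor tied to Zfp467 in bone and also named after its value was seen, had 0.81 ± 0.27 (adjusted p = 0.0191), which did not pass when puro library 1 (0.61), puro library 2 (0.64) or Prdm16 library 2 (0.76) was left out and was 1.27 when puro library 3 was.

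**Figure D5:**
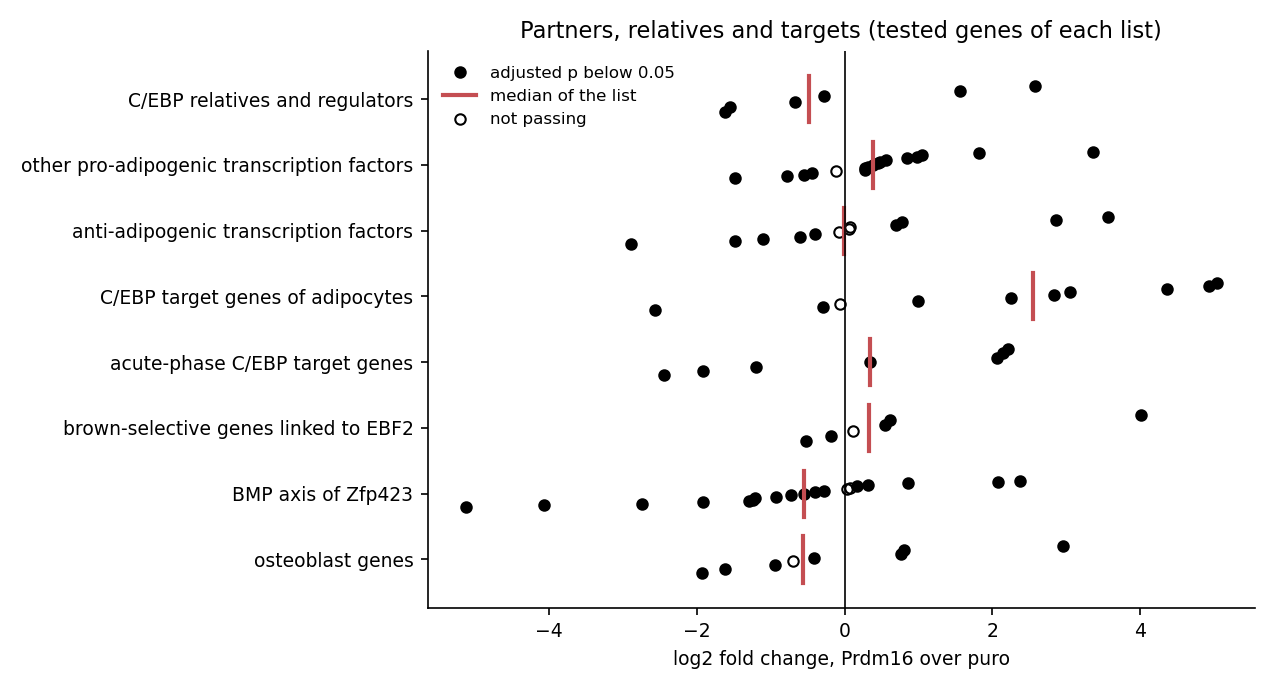
Log2 fold change, Prdm16 over puro, of every tested gene of 8 lists, filled where the adjusted p was below 0.05, with the list's median in red. With the main filter on low counts the median is 2.54 for the C/EBP targets of adipocytes and −0.55 for the BMP axis.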

How the data were processed

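The deposited table holds whole-number counts per gene symbol, which the authors did not normalize. STAR, Subread, featureCounts and the build mm9 are listed, without role, order or version, per the submitters' processing notes; annotation and strand setting: not given in the sources. Libraries were grouped by the sample labels, 3 puro and 3 Prdm16. In R 4.3.3, the filterByExpr function of edgeR 4.0.16 retained genes (13805 of 24197; those removed held 0.0297% of counts). TMM scaling and the quasi-likelihood test (two-sided) followed, with Benjamini-Hochberg adjustment over all tested genes. The code was first tested on simulated data. The SE is the log2 fold change over the root of F. Replicate pairs differed beyond sampling noise (chi-square of 2.08 to 8.85 per gene), and the common biological coefficient of variation was 4.78%. Exon lengths, coding sequences and chromosomes came from GENCODE M21 and RefSeq GRCm38.p6, matched by symbol, a build other than that of the counts, and promoters from RefSeq. Named genes were the 10 members, Prdm16, the 3 smallest p of each list and the 3 nearest profiles; others are marked, and 1 gene the rule names is not reported here. The members and lists were chosen with earlier results of these data known. Alternatives were other scalings and filters, DESeq2 1.42.0, limma-voom (limma 3.58.1), a replicate block, Prdm16 left out, an adjusted p of 0.01, chromosome medians removed and each library left out. Intervals and floors cover counting error only.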

Additional observations from a re-analysis of the deposited data

How the results depend on the processing

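All 10 factors kept their direction and their call under the 16 alternatives, except that Ebf4 was not tested when 1 CPM was required in 3 libraries, which left 9. Over all genes 10430 were called, and 9192 to 11149 under the alternatives. Same-numbered libraries of the 2 groups did not deviate together (r of −0.16, 0.10 and −0.07 for replicates 1, 2 and 3, and not every library correlated best with its own number), so the numbers were not taken as pairs; with the replicate block 10089 genes and 10 factors were called. Leaving out each library gave 9884 to 10444 genes and 10 factors. With chromosome medians removed Zfp521 had −0.54 and Ebf2 −3.09, Cox8a had 0.48 in place of 0.87, and the cause was not tested. Of the osteoblast genes 2 in place of 3 rose at an adjusted p of 0.01 and without puro 1, puro 2 or Prdm16 2. The brown-selective list had 2 higher genes without puro 1, puro 3, Prdm16 1 or Prdm16 2 and with DESeq2, and 1 at an adjusted p of 0.01. Without a filter on low counts it had 4 higher genes of 13 tested. Insr passed at −0.18 with chromosome medians removed. Depth limits Ebf4 most, at 30 counts over the puro group.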
